A study of Rattus norvegicus with 31 samples.

Results

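Of the 21 recombinant inbred strains of the HXB/BXH rat panel with a left ventricle library, 6 had a Zp2 value over 4 on the log2 scale of the RefSeq gene table and 15 had a value of 4 or less. These are called the strains with high and with low Zp2. The measured Zp2 value chose the classes, so Zp2 is described without a test in these strains, and the comparisons below concern the other genes. The series holds 31 libraries of total RNA, of which 8 libraries of the progenitor strains, 4 of SHR/OlaIpcv (the spontaneously hypertensive rat) and 4 of BN-Lx/Cub (a Brown Norway congenic strain), were set beside the classes. Each recombinant inbred strain descends from a cross of SHR and BN-Lx that was inbred until every locus was fixed for one progenitor allele or the other, and HXB (substrain Ipcv) and BXH (substrain Cub) are the reciprocal crosses. All animals were untreated males, 1 library was made per recombinant inbred strain, and ages are not given in the labels used here. Every recombinant inbred strain is therefore 1 animal in these data. The p-values between the classes rest on the spread between these strains, which includes that of animals and libraries. Those between SHR and BN-Lx rest on the spread among 4 animals of each strain.

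Zp2 encodes a glycoprotein of the zona pellucida, the coat of the mammalian oocyte, where it takes part in the binding of sperm. It is not a marker of any heart cell type. In a recombinant inbred panel, a transcript whose level depends on an allele at its own locus falls into separate levels among the strains, and neighbouring genes on the same chromosome are inherited with it until a recombination separates them. Genes close to Zp2 therefore share much of their progenitor origin with it, whereas genes on other chromosomes should not, apart from chance in a small panel. The comparison asks which other transcripts of the left ventricle differ with the Zp2 class and whether they lie near Zp2.

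In the strains with high Zp2 the RefSeq gene value was 4.57 in HXB1, 4.60 in HXB21, 4.69 in HXB5, 4.72 in BXH10, 4.75 in BXH11 and 4.92 in HXB29. In the strains with low Zp2 the lowest value was 3.20 (BXH8), the median 3.35 and the highest 3.6 (BXH5). HXB1 was the high strain and BXH5 the low strain nearest to the class limit, and the gap between them was 0.98 on the log2 scale. The class means were 4.71 ± 0.13 (SD, n = 6) and 3.36 ± 0.11 (SD, n = 15), high before low. The high class held 4 HXB and 2 BXH strains, and the low class held 8 HXB and 7 BXH strains. Of the high strains 5 were sequenced in batch 3 and 1 (BXH10) in batch 2, and of the low strains 10 were in batch 3 and 5 in batch 2. Other tables of the same libraries separated the same strains. In the table of assembled genes, whose models were built from the reads, Zp2 ranged between 5.01 and 5.82 in the high class and between 2.1 and 3.48 in the low class. The RefSeq transcript of Zp2 ranged between 4.28 and 4.67 in the high class and between 2.54 and 3.10 in the low class.

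Zp2 lies on chromosome 1 of the rn7 genome build, between 174513507 and 174531531 on the minus strand. The deposited annotation holds 20 distinct exons and 2 transcripts of Zp2, and 1 transcript with 18 exons was measured. The progenitors are animals that the class rule did not use. Assembled Zp2 had values of 5.24, 5.27, 5.24 and 5.28 in SHR, against 2.57, 2.24, 1.5 and 1.77 in BN-Lx. The strains did not overlap, and the difference was 3.24 ± 0.29 on the log2 scale (SE; limma adjusted p = 1.32e-05, n = 4 each). Zp2 stayed called under all 11 alternatives, with differences between 3.06 and 3.42. The mean of the high class, 5.32, lay next to the SHR mean of 5.26, and the mean of the low class, 2.76, lay between the progenitors and nearer to the BN-Lx mean of 2.02. The progenitor means come from batch 1 and the class means from batches 2 and 3, so batch cannot be told apart in this comparison. A pair of later SHR libraries, both of animal 4 and so repeats of 1 animal, had 5.03 and 4.93 in the RefSeq table, above every recombinant inbred strain.

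Sequences are shown for 3 genes near Zp2 whose values are described below. Lyrm1 and Rexo5 are neighbours on the plus strand whose class differences had opposite signs, and Vwa3a was higher in every strain with high Zp2. Each line gives the 250 bases before the annotated start from RefSeq, on the GRCr8 build, which is made from a Brown Norway rat and differs from the rn7 build of the positions in the rest of the text. Capitals mark CCGGAAGT or its reverse complement ACTTCCGG, the core bound by ETS family transcription factors.
Lyrm1 (chr1:183716288-183716537, plus strand): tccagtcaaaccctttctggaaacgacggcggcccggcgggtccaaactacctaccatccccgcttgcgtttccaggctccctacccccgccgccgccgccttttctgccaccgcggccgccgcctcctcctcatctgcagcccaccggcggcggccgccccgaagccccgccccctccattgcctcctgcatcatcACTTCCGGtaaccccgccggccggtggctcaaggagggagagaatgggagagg
Rexo5 (chr1:183599805-183600054, plus strand): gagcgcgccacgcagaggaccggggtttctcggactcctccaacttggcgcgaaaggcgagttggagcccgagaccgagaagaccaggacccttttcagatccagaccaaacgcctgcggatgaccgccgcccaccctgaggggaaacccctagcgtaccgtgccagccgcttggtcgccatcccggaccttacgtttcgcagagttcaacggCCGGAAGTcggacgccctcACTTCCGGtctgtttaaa
Vwa3a (chr1:184724920-184725169, plus strand): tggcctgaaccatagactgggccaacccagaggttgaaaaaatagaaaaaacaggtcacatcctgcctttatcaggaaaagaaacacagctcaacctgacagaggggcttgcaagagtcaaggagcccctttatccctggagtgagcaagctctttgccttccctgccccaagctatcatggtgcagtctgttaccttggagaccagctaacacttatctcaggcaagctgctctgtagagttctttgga
The motif occurred 1 time in the Lyrm1 window, 2 times in the Rexo5 window and in none of the Vwa3a window, searched on both strands, and 3.10% of 33469 promoter windows of this length held it. TATAAA or TTTATA was in none of the 3 windows and in 12.9% of all windows. GC content was 69.2% for Lyrm1, 62.8% for Rexo5 and 49.2% for Vwa3a. The motifs were chosen after the sequences were seen, and no match is a measured binding site.

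A total of 19099 RefSeq genes were compared between the 6 strains with high and the 15 strains with low Zp2, with sequencing batch as a covariate. A gene is called here when the limma p, adjusted by Benjamini-Hochberg over all 19099 genes, is under 0.05. There were 7 calls, or 0.0367% of all genes, of which 4 were higher (0.0209%) and 3 were lower (0.0157%) in the strains with high Zp2. Within 20 Mb of Zp2 there was 1 call among 294 genes (0.34%), Lyrm1. No gene elsewhere on chromosome 1 (1453 genes) was called, where 63 had an unadjusted p under 0.05. On other chromosomes 1 of 11979 genes was called (0.00835%), Rpl7a on chromosome 3. The other 5 calls (Vwa3a, Ascl3, LOC120094691, LOC120097345 and LOC102548271) were among 5373 genes without a position in the deposited annotation (0.0931%).

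Lyrm1 encodes a small protein of the LYR motif family. It lies 0.21 Mb from Zp2, on the plus strand of chromosome 1 (174284116 to 174305112, rn7). Its values in the strains with high Zp2 were 7.83 (HXB29), 7.92 (BXH10), 7.92 (BXH11), 7.93 (HXB5), 7.93 (HXB21) and 8.11 (HXB1). In the strains with low Zp2 the lowest Lyrm1 value was 8.16 (BXH9), the median 8.42 and the highest 8.50. The classes did not overlap, which was the case for 2 of all 19099 genes (0.0105%), Lyrm1 and Vwa3a. Lyrm1 fell by 0.44 ± 0.06 on the log2 scale in the strains with high Zp2 (SE; limma adjusted p = 0.0093). The later SHR libraries had Lyrm1 values of 7.76 and 7.73, below all strains. In the fit without BXH10, the only high strain of batch 2, the limma adjusted p of Lyrm1 was 0.087, and no gene was called, while 2.68% of genes had an unadjusted p under 0.05.

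Vwa3a encodes a protein with a von Willebrand factor A domain. In the order of genes on GRCr8 it lies on chromosome 1 between Mosmo and Sdr42e2, which are 0.69 and 0.83 Mb from Zp2 in rn7. Vwa3a had values between 5.14 (HXB5) and 5.65 (HXB29) in the strains with high Zp2, with a median of 5.33. In the strains with low Zp2 its values lay between 4.61 (HXB7) and 5.11 (HXB13), with a median of 4.82. Vwa3a was higher in all 6 high strains than in any low strain, by 0.53 ± 0.08 (SE; limma adjusted p = 0.012). Without BXH10 its adjusted p was 0.10. In the table of RefSeq transcripts no transcript of Vwa3a was called. NM_001079885.1 differed by 0.58 ± 0.13 (SE, limma adjusted p = 0.40), XM_039107074.1 by 0.10 ± 0.07 and XM_039107082.1 by -0.01 ± 0.09 (SE). The later SHR libraries had Vwa3a values of 5.75 and 5.88.

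For the other 5 calls the classes overlapped, and HXB29 stood on the side of the low class in 4 of them. Ascl3, a basic helix-loop-helix transcription factor, had values between 3.43 and 3.6 in 5 high strains and 4.07 in HXB29, against 3.98 to 4.87 in the low class with a median of 4.3. Its difference was -0.71 ± 0.11 (SE; limma adjusted p = 0.013). GRCr8 places Ascl3 between C1h11orf16 and Tmem9b, which lie 10.8 and 10.7 Mb from Zp2 in rn7. LOC102548271, a long noncoding RNA gene that GRCr8 places beside Spon1 (6.29 Mb from Zp2 in rn7), had values between 3.30 and 3.73 in 5 high strains and 2.79 in HXB29. In the low class LOC102548271 ranged between 2.68 and 3.38, with a median of 2.84. Its difference of 0.61 ± 0.11 (SE; limma adjusted p = 0.049) was called in only 2 of the 21 fits that left out a strain.

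Rpl7a encodes a protein of the large ribosomal subunit and lies on chromosome 3. It had values between 13.7 and 14.0 in 5 high strains and 12.9 in HXB29. In the low class Rpl7a ranged between 12.7 and 13.4, with a median of 12.9, and HXB31 had the highest of these values. The difference was 0.69 ± 0.12 (SE; limma adjusted p = 0.024). Ribosomal protein genes have many processed copies whose reads can be split between loci, so the locus behind this difference is uncertain. In the older table of Ensembl genes from the same libraries the Rpl7a difference was 0.0076 (adjusted p = 0.99), and for the assembled gene of that name it was 0.70 ± 0.15 (SE, adjusted p = 0.47). LOC120097345 had the largest difference among the calls. It had values between 8.57 and 9.04 in 5 high strains and 12.5 in HXB29. In the low class it had 8.97 in HXB31, and the other 14 strains lay between 12.3 and 13.2. The difference was -2.99 ± 0.52 (SE; limma adjusted p = 0.024), and the later SHR libraries had 8.69 and 9.08. LOC120094691 had values between 4.61 and 5.29 in the high class and between 3.50 and 4.63 in the low class, with a difference of 0.95 ± 0.16 (SE; limma adjusted p = 0.024). Neither of these LOC genes is listed in the GRCr8 annotation used here, so no position is given.

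**Figure D1:**
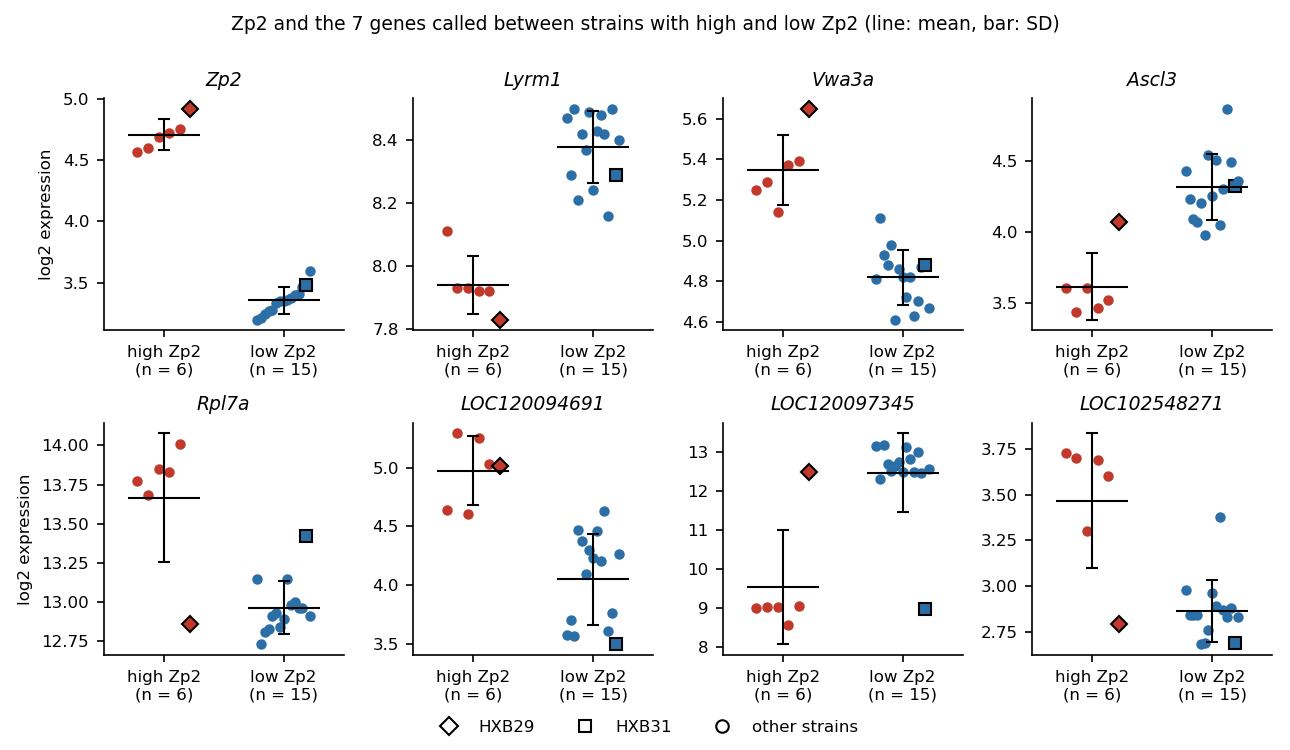
Log2 expression (y axis) of Zp2 and the 7 called genes in each strain, with strains of high Zp2 left of strains of low Zp2 and HXB29 and HXB31 marked (horizontal line, mean; bar, SD). Lyrm1 and Vwa3a do not overlap between the classes, while HXB29 lies with the low class for Ascl3, Rpl7a, LOC120097345 and LOC102548271.

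Beside the calls, unadjusted p-values under 0.05 were counted by distance. They made up 15.6% of genes within 20 Mb of Zp2 (46 of 294) and 4.34% elsewhere on chromosome 1, against 4.18% of all genes tested. Within 1 Mb they were 7 of 17 genes, between 1 and 5 Mb 7 of 39, between 5 and 10 Mb 12 of 112, and between 10 and 20 Mb 20 of 126. Between 20 and 40 Mb the share was 5.71% (23 of 403 genes). The median size of the log2 difference was 0.21 within 1 Mb and 0.062 over all genes. Neighbouring genes share their progenitor origin within a strain, so these genes are not independent, and the shares are a description.

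Among genes with a position, the 10 nearest to Zp2 were Anks4b, Crym, Dnah3, Lyrm1, Dcun1d3, Rexo5, Abca16, Eri2, Acsm3 and Acsm5. Exons named Anks4b, a name that 6 assembled genes carry, reach to both sides of Zp2 on the other strand. Rexo5, an RNA exonuclease 0.25 Mb from Zp2, had values between 6.84 and 7.07 in the strains with high Zp2 and between 6.25 and 7.04 in the strains with low Zp2, where the median was 6.49. Its difference was 0.46 ± 0.10 (SE, unadjusted p = 0.00017), but the limma adjusted p was 0.25. In the table of RefSeq transcripts the 4 transcripts of Lyrm1 had differences between -0.59 and -0.22, none of them called (limma adjusted p between 0.62 and 1.00), and the 2 transcripts of Rexo5 differed by -0.09 and 0.05. Crym, the mu-crystallin that binds thyroid hormone in the cytosol, had medians of 10.5 in the high and 10.8 in the low class, with a difference of -0.41 ± 0.18 (SE, limma adjusted p = 0.96). Anks4b, a scaffold protein with ankyrin repeats, had a difference of -0.24 ± 0.09 and Abca16, a transporter of the ABC family, one of -0.23 ± 0.09 (SE, limma adjusted p = 0.96 for each). Dnah3, an axonemal dynein heavy chain, had medians of 2.57 and 2.59 and a difference of 0.02 ± 0.08, and Dcun1d3 a difference of -0.10 ± 0.09 (SE).

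The acyl-CoA synthetases of the ACSM family activate medium-chain fatty acids in mitochondria, and several members are neighbours of Zp2. Of the 3 measured members none was called, and 1 had an unadjusted p under 0.05. Acsm5, 0.62 Mb from Zp2, ranged between 3.17 and 3.63 in the high class and between 3.21 and 4.99 in the low class, with a difference of -0.51 ± 0.19 (SE, limma adjusted p = 0.96). Acsm3 differed by 0.01 ± 0.08 and Acsm1 by -0.36 ± 0.23 (SE). Further from Zp2, Uqcrc2, a core subunit of respiratory complex III at 0.64 Mb, had medians of 14.9 in the high and 15.1 in the low class and a difference of -0.21 ± 0.06 (SE, unadjusted p = 0.0025). Mettl9, a histidine methyltransferase of proteins at 1.04 Mb, had a difference of -0.24 ± 0.05 (SE, unadjusted p = 0.0002), with 9.99 to 10.35 in the high and 10.25 to 10.54 in the low class. Mettl9 was called when family was added as a covariate (adjusted p = 0.036). In that fit 11.6% of all genes had an unadjusted p under 0.05, against 4.18% without family. Without family, neither Uqcrc2 nor Mettl9 was called (limma adjusted p = 0.95 and 0.25).

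Genes farther out in the window, named after their values were seen because their unadjusted p was under 0.01, differed in both directions. Gvin1, an interferon-induced very large GTPase 14.1 Mb from Zp2, had values between 8.43 and 10.1 in the high class and between 9.23 and 10.9 in the low class. Its difference was -1.03 ± 0.23 (SE, limma adjusted p = 0.26), and HXB29 held the highest value of the high class. The later SHR libraries had Gvin1 values of 10.02 and 10.13, on the side of the low class. A RefSeq transcript of Gvin1 differed by 0.125 ± 0.30 between the classes (SE, unadjusted limma p = 0.68). Ino80e, a subunit of the INO80 chromatin remodelling complex at 6.93 Mb, differed by 0.42 ± 0.09, and Tgfb1i1, a focal adhesion adaptor at 8.30 Mb, by 0.40 ± 0.10 (SE, limma adjusted p = 0.20 and 0.64). Eif3c, a subunit of translation initiation factor 3 at 6.57 Mb, differed by -0.19 ± 0.05, and Cyp2r1, a vitamin D hydroxylase at 5.71 Mb, by -0.37 ± 0.12 (SE). Trim21, a TRIM family ubiquitin ligase and antibody receptor at 17.5 Mb, differed by -0.35 ± 0.11, and Trim34 of the same family, at 15.8 Mb, by -0.35 ± 0.10 (SE). LOC100361543, at 18.2 Mb, had the lowest p of the window after Lyrm1, with a difference of 0.50 ± 0.10 (SE, limma adjusted p = 0.099). It was called after quantile normalization (adjusted p = 0.036). The assembled gene of that name differed by 0.06 ± 0.15 between the classes (SE, unadjusted limma p = 0.68). Its class means were 11.46 and 11.39, high before low, against 3.85 and 3.36 in the RefSeq table. With family as a covariate, where 11.6% of all genes had an unadjusted p under 0.05, Gvin1 (adjusted p = 0.0070) and Ino80e (0.019) were also called. So was LOC120099919, a long noncoding RNA gene without a position in rn7, which GRCr8 places 4 genes from Zp2, between Dnah3 and Ldaf1 (difference -0.58 ± 0.09, SE, adjusted p = 0.0070). Without family it ranged between 5.73 and 6.03 in the high and between 6.01 and 7.04 in the low class, with a difference of -0.63 ± 0.13 (SE, limma adjusted p = 0.12).

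**Figure D2:**
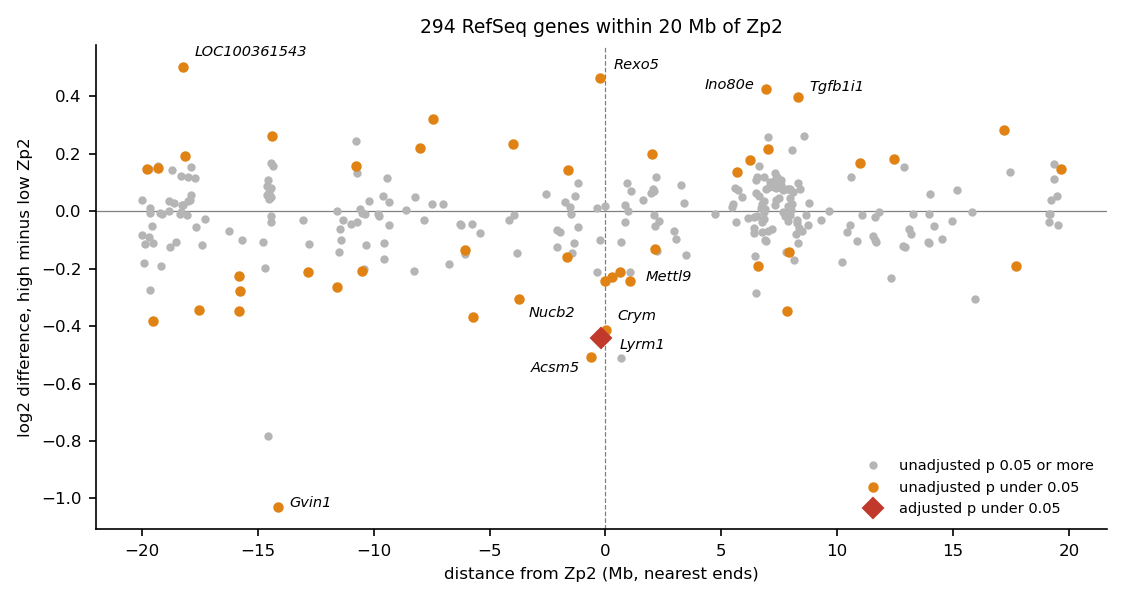
Log2 difference of the strains with high minus the strains with low Zp2 (y axis) for 294 RefSeq genes by distance from Zp2 (x axis, Mb, negative toward lower coordinates). Orange points mark the unadjusted p-values under 0.05 and the red diamond the called gene, Lyrm1.

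Genes of the region that have been discussed as candidates for blood pressure were listed separately. Of 11 measured members none was called, and the median difference was -0.02, against -0.00083 over all genes. Nucb2, the precursor of nesfatin, 3.71 Mb from Zp2, ranged between 9.03 and 9.45 in the high and between 9.36 and 9.83 in the low class, with a difference of -0.31 ± 0.07 (SE, limma adjusted p = 0.26). Plekha7, a protein of adherens junctions at 3.97 Mb, ranged between 7.47 and 7.68 in the high and between 6.92 and 7.51 in the low class, with a difference of 0.23 ± 0.07 (SE, limma adjusted p = 0.96). The classes overlapped for both genes. The other 9 (Prkcb, Adm, Sox6, Pik3c2a, Pde3b, Irag1, Tead1, Arntl and Acsm3) had differences between -0.15 and 0.12, each with an unadjusted p over 0.05.

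Genes linked to the zona pellucida or the oocyte were also read as a list, though not all are confined to the oocyte. Cd9, for example, had a median of 11.17 in the high and 11.02 in the low class. Of 22 listed genes 6 were measured beside Zp2, namely Zpbp, Gdf9, Bmp15, Tle6, Cd9 and Oosp1, and Zp1, Zp3 and Zp4 were not among the RefSeq genes analysed here. None was called or had an unadjusted p under 0.05, and their differences lay between -0.04 and 0.15. Gdf9 and Bmp15, growth factors of the oocyte, had medians of 0.65 and 1.81 in the high class and of 0.64 and 1.84 in the low class. Tle6, a protein of the maternal complex of the oocyte, had a median of 6.34 in the high and 6.06 in the low class.

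The progenitors were then read for the same genes. Assembled genes called between SHR and BN-Lx were 14.3% of 46063 over the genome and 14.7% of 904 within 20 Mb of Zp2. The assembled gene that carries both names Lyrm1 and Rexo5 averaged 8.26 ± 0.09 in SHR and 8.75 ± 0.11 in BN-Lx (SD, n = 4 each), a difference of -0.49 ± 0.10 (SE, limma adjusted p = 0.0055). In the recombinant inbred strains the same assembled gene averaged 8.31 in the high and 8.69 in the low class, a difference that was not called (-0.40 ± 0.09, SE, limma adjusted p = 0.53). Acsm5 averaged 2.25 ± 0.59 in SHR and 4.56 ± 0.98 in BN-Lx (SD, n = 4 each; difference -2.31 ± 0.47, SE, limma adjusted p = 0.0060). Uqcrc2 differed by -0.34 ± 0.07, Mettl9 by -0.27 ± 0.08, Eif3c by -0.31 ± 0.07, Cyp2r1 by -0.97 ± 0.14, Tgfb1i1 by 0.74 ± 0.09 and Gvin1 by -1.49 ± 0.12 (SE, SHR minus BN-Lx), and all 6 were called. Each of these had the same sign between the Zp2 classes, although 6 assembled genes carry the name Gvin1 and the most abundant was read. Not called between SHR and BN-Lx were Trim21 (0.04 ± 0.15), Trim34 (0.02 ± 0.16) and LOC100361543 (-0.045 ± 0.09, SE). Their signs were opposite to those between the classes in the RefSeq table. Nucb2 (-0.15 ± 0.08) and Plekha7 (0.28 ± 0.11, SE) were not called either and shared the sign of the class difference. Anks4b differed by 0.70 ± 0.15 and so in the other direction than between the classes in the RefSeq table, although 6 assembled genes carry its name and the one read here differed by -0.0024 between the classes. Crym differed by 0.43 ± 0.13 between SHR and BN-Lx (SE, limma adjusted p = 0.051), against -0.43 ± 0.21 between the classes in the same table of assembled genes. Rpl7a averaged 13.4 ± 0.10 in SHR and 12.6 ± 0.19 in BN-Lx (SD, n = 4 each), a difference of 0.83 ± 0.09 (SE, limma adjusted p = 7.47e-05).

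The class comparison in the table of assembled genes made 1 call among 46062 genes (0.00217%). It was a gene of a single exon on the minus strand, named Tmem9b in the annotation (chromosome 1, 163755306 to 163755966, rn7), 10.8 Mb from Zp2. Its values lay between 2.21 and 4.23 in the high class, with the highest in HXB29, and between 3.93 and 5.48 in the low class. The difference was -1.62 ± 0.24 (SE, limma adjusted p = 0.036). In the progenitors it averaged 2.69 ± 0.24 in SHR and 5.04 ± 0.26 in BN-Lx (SD, n = 4 each). The RefSeq gene Tmem9b, in contrast, differed by only -0.04 ± 0.06 between the classes (SE, limma adjusted p = 0.97). Tmem9b neighbours Ascl3 in GRCr8. For Ascl3 and for the single-exon assembled gene, HXB29 was the high strain nearest to the low class.

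Of the assembled genes called between SHR and BN-Lx, 132 lay within 20 Mb of Zp2, without Zp2 itself. The difference between the Zp2 classes had the sign of the progenitor difference in 112 of these (84.8%), in 65.3% of 643 called genes elsewhere on chromosome 1 and in 59.5% of 5827 on other chromosomes. The median ratio of the class difference to the progenitor difference was 0.36 within 20 Mb, 0.097 elsewhere on the chromosome and 0.055 on other chromosomes. Within 1 Mb the sign was shared by 11 of 15 genes, with a median ratio of 0.57. Of the 10 genes there with an unadjusted p under 0.05 between the classes, all 10 had the shared sign, as did 28 of 29 elsewhere on chromosome 1 and 145 of 213 on other chromosomes.

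**Figure D3:**
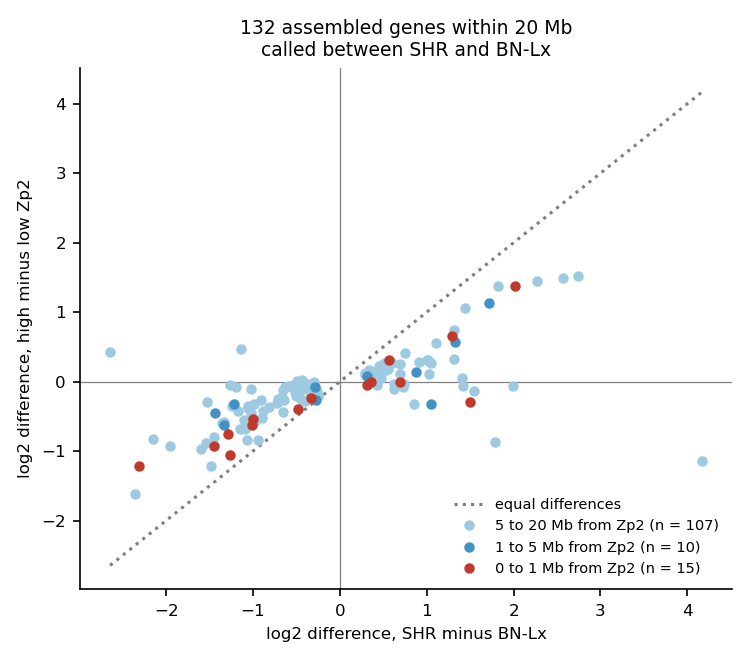
Log2 difference of the strains with high minus low Zp2 (y axis) against the log2 difference SHR minus BN-Lx (x axis) for 132 assembled genes within 20 Mb of Zp2 that were called between the progenitors, coloured by distance from Zp2. Most points lie in the quadrants of equal sign and nearer to zero on the y axis than the dotted line of equal differences.

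Each strain was also placed between the progenitors. For 55 assembled genes within 20 Mb that were called between SHR and BN-Lx with a difference of at least 1 on the log2 scale and no overlap, a position of 1 stands for the SHR mean and 0 for the BN-Lx mean. These genes were chosen on the progenitors alone, after the results of the classes were known. Within 1 Mb of Zp2 (8 genes, of which 3 carry the name Anks4b) the median position was over 0.5 in 6 of 6 high strains and under 0.5 in 15 of 15 low strains, with class medians of 0.87 and 0.30. Farther away the separation was not complete. At 1 to 5 Mb on the lower side (5 genes) HXB29 lay at or under 0.5, as it did at 5 to 10 Mb and at 10 to 20 Mb on that side. On that lower side, low strains lay at or over 0.5 at 1 to 5 Mb (BXH2, HXB17 and HXB25) and at 5 to 10 Mb (BXH6, BXH8, BXH9 and HXB31). Between 10 and 20 Mb, 4 low strains (BXH12, BXH13, BXH2 and BXH8) did so. The higher side held 1 gene at 1 to 5 Mb. For it the high strains HXB21 and HXB5 lay at or under 0.5 and the low strains BXH9 and HXB20 at or over 0.5. On the higher side, between 5 and 10 Mb, BXH10 lay at or under 0.5 among the high strains and 6 of the 15 low strains lay at or over 0.5. Between 10 and 20 Mb on the higher side 7 of the 15 low strains did so. By this median, HXB29 lay on the SHR side within 1 Mb of Zp2 and on the BN-Lx side in the 3 stretches below it. Its single genes ranged between 0.17 and 1.21 within 1 Mb, and between -0.21 and 1.15 at 1 to 5 Mb on the lower side. These are expression values, and the genotype of the strain was not tested. The progenitor libraries were all of batch 1 and those of the recombinant inbred strains of batches 2 and 3. No batch term enters the positions, so a batch difference cannot be told apart from a shift between the progenitor means.

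**Figure D4:**
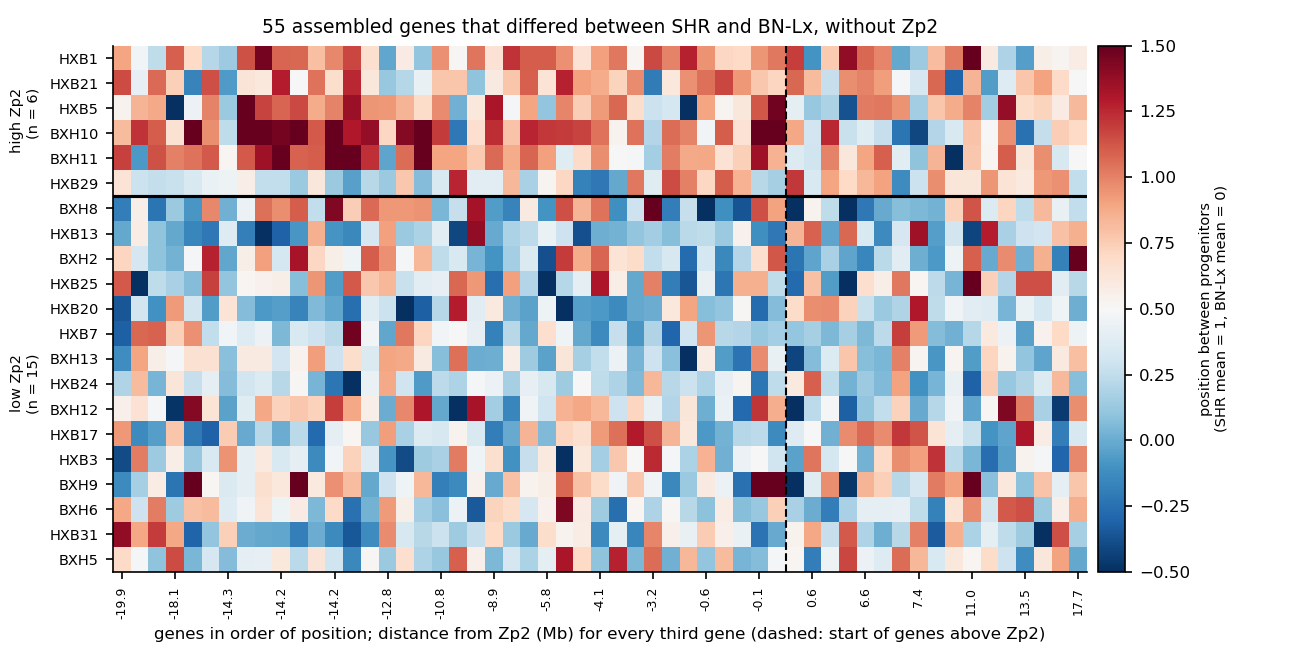
Position of each strain (rows) between the progenitors for 55 assembled genes in order of distance from Zp2 (columns, Mb), where 1 (red) is the SHR mean and 0 (blue) the BN-Lx mean, with the strains of high Zp2 above those of low Zp2. Values beyond the colour bar are drawn at its ends. Single genes vary, while the medians over the 8 genes within 1 Mb separate the classes, and HXB29 is paler or blue over much of the lower side, left of the dashed line.

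Outside the region, the gene list with the largest share of unadjusted p-values under 0.05 was the interferon response, the set of antiviral genes that type I interferon switches on in most cells. None of its 25 measured members reported here was called, while 21 had an unadjusted p under 0.05, all lower in the strains with high Zp2. Of all genes, 4.18% had such a p, 1.97% lower and 2.21% higher. The median difference of the list was -0.49 and that of all genes -0.00083. Mx1, a dynamin-like antiviral GTPase, ranged between 7.51 and 9.33 in the high class (median 8.0) and between 7.79 and 10.1 in the low class (median 9.27). Isg15, a ubiquitin-like modifier, ranged between 7.89 and 8.63 in the high and between 8.06 and 9.87 in the low class, with a difference of -0.72 ± 0.20 (SE, limma adjusted p = 0.87). Rsad2, the antiviral enzyme viperin, differed by -0.32 ± 0.09 (SE, limma adjusted p = 0.87). Irf1, Bst2, Stat2 and Ifit1 did not reach an unadjusted p of 0.05. Averaged over the 25 genes, the strains with high Zp2 lay between 8.81 and 9.34 and the strains with low Zp2 between 8.86 and 10.02, so the classes overlapped.

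These genes respond to a common signal and are not independent observations. The count was 18 within batch 3 alone, where 2.58% of all genes had such a p, 17 in HXB strains alone (11.9% of all genes) and 12 in BXH strains alone (4.37%), and between 18 and 21 when each strain was left out. Irf7, the transcription factor that amplifies the response, lies 21.8 Mb from Zp2 on chromosome 1, just outside the window. It ranged between 10.1 and 11.3 in the high class and between 10.4 and 12.4 in the low class, with a difference of -0.72 ± 0.29 (SE, limma adjusted p = 0.96). Its part in the list's values was not tested. Between SHR and BN-Lx, 21 of the listed genes had an assembled gene of their own, of which 4 were called higher in SHR and 1 was called lower, against 14.3% of all assembled genes called in either direction. The difference was positive for 14 of the 21 and negative for 7, with a median of 0.08.

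**Figure D5:**
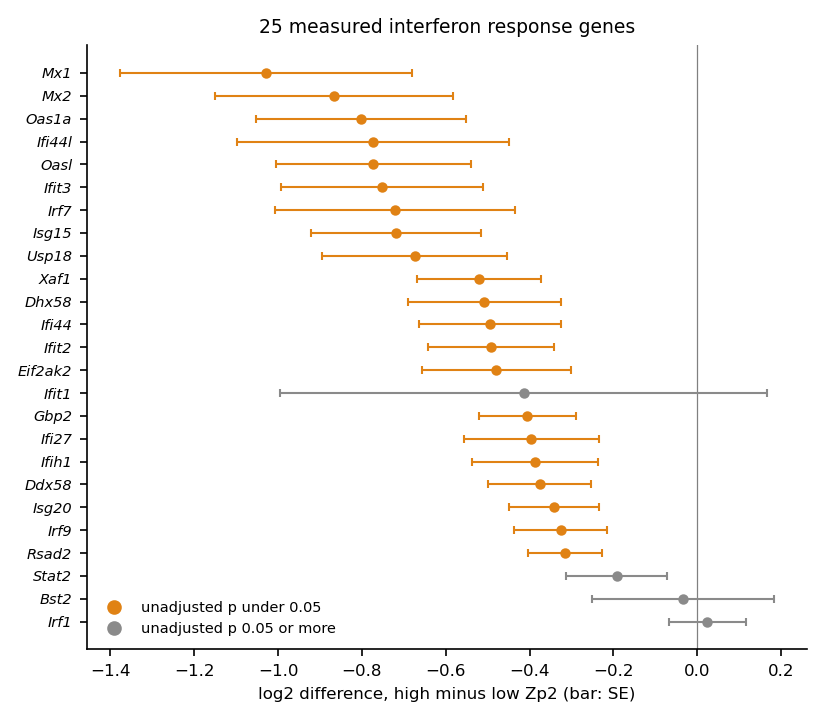
Log2 difference of the strains with high minus low Zp2 (x axis; bar, SE) for the 25 measured genes of the interferon response (rows). The 21 genes in orange have an unadjusted p under 0.05 and all lie left of zero, and none was called after adjustment over all genes.

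No member of the other lists was called. Of 38 extracellular matrix genes 7 had an unadjusted p under 0.05, all higher in the strains with high Zp2, against 4.18% of all genes and 2.21% in that direction, among them Eln, the elastin gene, with a difference of 0.32 ± 0.12 (SE, limma adjusted p = 0.96). Of 28 genes of fatty acid oxidation 6 had such a p, 2 higher and 4 lower, and of 40 nuclear genes of oxidative phosphorylation 2, both lower, of which Uqcrc2 is a neighbour of Zp2. Nppa, the precursor of atrial natriuretic peptide, ranged between 12.1 and 14.0 in the high class and between 11.99 and 13.5 in the low class, with a difference of 0.61 ± 0.23 (SE, limma adjusted p = 0.96). None of 18 sarcomere genes, 19 circadian clock genes or 18 immediate early and heat shock genes had an unadjusted p under 0.05.

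Among 75 measured markers of 12 cell types none was called and 6 had an unadjusted p under 0.05 (8.0%, against 4.18% of all genes). Of these, 3 were among the 10 endothelial markers (Cdh5, Egfl7 and Tie1), all higher in the strains with high Zp2, the direction of the matrix genes. The endothelial markers had a median difference of 0.11 and averaged between 12.2 and 12.3 in the high and between 11.9 and 12.3 in the low class, and their part in the matrix values was not tested. The list medians lay between -0.11 (lymphocytes) and 0.15 (atrial markers). Cardiomyocyte markers averaged between 17.3 and 17.6 in the high and between 17.2 and 17.7 in the low class, with a median difference of 0.0071, at the highest mean level of the 12 lists. Markers of macrophages, with none of 8 under an unadjusted p of 0.05, had a median difference of -0.08. Those of lymphocytes, with 1 of 8 (Gzmb, -0.45 ± 0.16, SE), had one of -0.11. Medians were also lower in the strains with high Zp2 for neutrophil and mast cell (-0.10), mesothelium (-0.09), erythroid (-0.05) and Schwann cell markers (-0.02). This is the direction of the interferon list, and the part of these markers in it was not tested. The macrophage markers averaged between 9.43 and 9.83 in the high and between 9.47 and 10.03 in the low class, and the lymphocyte markers between 4.38 and 4.85 in the high and between 4.37 and 5.08 in the low class. In tissue RNA, fewer cells of a type and less RNA per cell cannot be told apart. Library medians ran between 7.89 and 7.95, and the median of the spike-in RNAs between 5.76 and 6.96 in the high and between 5.94 and 7.30 in the low class. No counts are given, so the depth of the libraries is unknown.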

How the data were processed

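Left ventricular RNA was sequenced after removal of ribosomal RNA. The deposited values are log2 expression per gene or transcript, and how the authors transformed them is not stated in the sources used here. The submitters' processing notes list the build rn7 and, with no roles or order, RSEM 1.3.1, StringTie 1.3.5, cutadapt 1.9.1, HISAT2 2.1.0, DESeq2 (no version) and Bowtie2 2.3.4.3. Depth is unknown, so no counting interval is given. Gene positions were read from the exons of the annotation deposited by the authors (version 7.1). A symbol on more than 1 chromosome, or spread over more than 5 Mb, got none, which left 13726 of 19099 genes with a position. Distance is between nearest ends.

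The 21 libraries were compared in R 4.3.3 by two-sided moderated tests of limma 3.58.1 (trended prior variance) with batch in the model. Zp2 and 69 spike-ins were left out. SHR and BN-Lx were compared in 8 libraries of batch 1 without covariates. BN-Lx values were used from the table of 46063 assembled genes. Where several assembled genes carry a symbol, the most abundant one bearing no other symbol was read, or failing that a shared one. The fits were tested on simulated data. Other software was statmod 1.5.0, Python 3.11.15, pandas 2.3.3, numpy 2.4.6, matplotlib 3.10.9 and scipy 1.17.1.

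The members of the classes, the 24 gene lists and the naming rule were chosen with earlier results of these data known. The rule named up to 12 called genes within 20 Mb and up to 8 called genes elsewhere with a position, the 10 nearest genes, all measured members of the lists of oocyte, ACSM and blood pressure genes, and up to 2 called members of every other list. Genes without a position called here or under an alternative, genes within 20 Mb with an unadjusted p under 0.01, and the examples from other lists were named after their values were seen. Alternatives covered the batch term, family, the variance prior, normalization, low values, subsets of strains, a principal component, the annotation and the window. The older Ensembl table (version 6), RefSeq transcripts and the interferon count by setting were added after seeing the data. A member of the interferon list is not reported here and entered none of its counts.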

Additional observations from a re-analysis of the deposited data

Results flagged for a closer look

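Among 129 groups of named genes with 4 to 10 libraries, 12 held a library farther from its neighbours than Dixon's critical value allows, and chance alone flags about 1 in 20 such groups. In the strains with high Zp2, HXB29 stood apart for Rpl7a (12.9, the other 5 between 13.7 and 14.0), Ascl3 (4.07, the others between 3.43 and 3.6) and LOC120097345 (12.5, the others between 8.57 and 9.05). HXB1 stood apart for Lyrm1 (8.11, the others between 7.83 and 7.93), BXH10 for Arntl (10.2, the others between 10.6 and 10.8) and BXH11 for Tgfb1i1 (9.56, the others between 8.87 and 9.11).

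In the progenitors, SHR replicate 3 was low for Crym (10.1, the others between 10.6 and 10.7), SHR replicate 1 low for Sox6 (12.4, the others near 12.7) and SHR replicate 2 high for Pik3c2a (11.14, the others between 10.85 and 10.90). BN-Lx replicate 3 was low for LOC100361543 (11.1, the others near 11.4), BN-Lx replicate 2 high for Tgfb1i1 (8.42, the others between 8.32 and 8.34) and BN-Lx replicate 1 high for Plekhb1 (7.81, the others between 7.61 and 7.63). No named gene was called in a limma interaction test of the class difference between HXB and BXH, at an adjusted p of 0.05. The high class holds only 2 BXH strains, so the test could hardly find a difference between the families. Of the named genes Ascl3 had the lowest unadjusted p (0.036), with an interaction of 0.47 ± 0.21 (SE).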

How the results depend on the processing

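The number of calls between the classes was 7 and changed with several settings. It was 11 with family as a covariate, 3 for genes with a mean over 5, 2 with the Zp2 value as a continuous term, 0 in batch 3 alone, 0 in HXB alone, 3 in BXH alone, 15 with the first principal component as a covariate, 1 in assembled genes and 3 in the Ensembl table added later. Within 20 Mb the 1 call became 4 with family, 2 after quantile normalization, 5 with the component and 0 in batch 3, in HXB or in BXH alone. On other chromosomes the 1 call became 2 with the component and 0 with the continuous term, in batch 3 alone, in HXB alone, in assembled genes and in the Ensembl table. Without a position the 5 calls became 3 with robust eBayes, 1 with a mean over 5, 1 with the continuous term, 0 in batch 3 or HXB alone, 2 in BXH alone, 8 with the component, 0 in assembled genes and 2 in the Ensembl table. The cause was not tested, except that subsets hold fewer strains. Genes with an unadjusted p under 0.05 were 2.58% in batch 3 alone and 11.9% in HXB alone. They were 11.6% with family and 7.12% with the component, against 4.18% in the main fit.

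With each strain left out in turn, calls ranged from 0 (without BXH10) to 9 over all genes, from 0 to 2 within 20 Mb, from 0 to 2 on other chromosomes and from 0 to 6 without a position. Lyrm1 and Vwa3a stayed called in 20 of 21 such fits, Ascl3 in 18, LOC120094691 in 15, Rpl7a in 13, LOC120097345 in 11 and LOC102548271 in 2. Neither Lyrm1 nor Vwa3a was called in batch 3, HXB or BXH alone. Of 39659 RefSeq transcripts 10 were called, among them that of Ascl3 (-0.90, adjusted p = 0.028). No call reversed its sign. Batch 2 alone was not run because it holds 1 high strain.

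With each replicate left out in turn, calls between SHR and BN-Lx ranged from 4377 (without SHR replicate 4) to 6114, against 6603 with all, and from 94 to 134, against 133, within 20 Mb. After quantile normalization there were 6655 in all. Same-numbered animals did not deviate together (correlations between -0.12 and 0.08), so the numbers pair no animals. With the replicate block there were 5437 calls in all and 107 within 20 Mb.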
